A study of Homo sapiens with 6 samples.

Results

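The cytosolic ribosomal protein genes were described in HCT116 cells, a human colon cancer line, that had been transduced with a control lentivirus (MOCK) or with a lentivirus carrying the coding region of cytoglobin (CYGB). Members were taken by symbol, as RPL or RPS followed by a number and at most 1 letter A or X, together with the stalk genes RPLP0, RPLP1 and RPLP2 and the small subunit gene RPSA. This gave 77 genes of the 40173 in the table, of which 46 encode proteins of the large subunit and 31 proteins of the small subunit, and they took up 754 of the 151453 transcript rows that carry a gene. FAU, which encodes a ribosomal protein fused to a ubiquitin-like protein, falls outside the rule and is counted among the related genes below.

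Both groups were HCT116 cells labelled wild type and held 3 libraries each, which the submitters describe as biological replicates. Both were infected at the same virus dose and selected with puromycin, so the lentivirus and the drug were shared and the CYGB coding region, fused to a FLAG tag, was the stated difference between them. Expression was constitutive, and whether a line was 1 clone or a mixed population is not given in the sources used here. If each group was 1 selected line, an effect of CYGB cannot be told apart from another difference between the lines. Total RNA was sequenced with paired-end reads, and 47193496 to 53531777 counts per library fell on transcripts with a gene. Counts of CYGB were 10, 28 and 34 in MOCK against 34935, 27681 and 32333 in CYGB, so each library carried the transgene its label states. The summed level of 7 epithelial markers was 4237 to 4715 CPM (counts scaled to library size) in MOCK and 4263 to 4623 CPM in CYGB. That of 6 fibroblast, 5 leukocyte and 4 endothelial markers was at most 53.5, 26.5 and 2.28 CPM in any library. The markers of a list were uneven. The epithelial marker CLDN4 was at most 1.65 CPM. Most of the fibroblast sum was COL1A1, with means of 46.4 CPM in MOCK and 49.7 CPM in CYGB. Most of the leukocyte sum was CD68, with 20.1 and 18.5 CPM.

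Ribosomal proteins are made in near-equal numbers, since each ribosome holds 1 copy of nearly all of them, and cells spend a large part of their messenger RNA on them. Their messenger RNAs typically begin with a C followed by an unbroken run of pyrimidines, the terminal oligopyrimidine (TOP) motif, through which mTOR and LARP1 set how well they are translated. Free RPL5 and RPL11 bind MDM2 and thereby stabilise p53, which is wild type in HCT116 cells, and this links ribosome assembly to the cell cycle.

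The TOP start is the sequence feature that the members share and that the choice of genes did not use. RefSeq start windows were found for 62 of the 77 members, and in 53 of them (85.5%) a C followed by at least 4 pyrimidines began within 5 bases of an annotated start, against 25.2% of all 27305 genes with a window. The letters searched were a C and then C or T, on the transcribed strand. The windows of 6 members on which results below turn are shown from 10 bases before the start to 20 bases from it, on GRCh38.p14, with the unbroken pyrimidine run around that C in capitals.
RPL7A, chr9:133348208-133348237, + strand: aTTCCCTTTCCTTTCTCTCTCCTCCCgccg
RPS3A, chr4:151099618-151099647, + strand: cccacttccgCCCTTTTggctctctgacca
RPL21, chr13:27251548-27251577, + strand: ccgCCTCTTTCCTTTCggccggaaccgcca
RPL22, chr1:6199576-6199605, - strand: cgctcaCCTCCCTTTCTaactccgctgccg
RPS6, chr9:19380217-19380246, - strand: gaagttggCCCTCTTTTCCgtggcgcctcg
RPL11, chr1:23691796-23691825, + strand: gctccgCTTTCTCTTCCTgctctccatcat
The runs of these members were 7 to 25 bases long, and that of RPL7A was the longest of the 6.

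The first question was whether the ribosomal protein genes as a whole took up a different part of the messenger RNA in CYGB cells. They held 6.88%, 6.59% and 6.21% of the counts in MOCK against 6.33%, 6.25% and 6.55% in the CYGB libraries. The groups overlapped, and the means were 6.56% ± 0.337 and 6.37% ± 0.155 (SD, n = 3 each), a difference of -0.188 percentage points that lay within the spread between replicates. The large subunit genes took 4.02% ± 0.227 in MOCK and 3.93% ± 0.0543 in CYGB, and the small subunit genes 2.54% ± 0.116 and 2.44% ± 0.120. Per unit of transcript length, in TPM (scaled to transcript and library size) from GENCODE 29 lengths, the members made up 13.7% ± 0.727 of the total in MOCK and 13.2% ± 0.180 in CYGB. These are shares of a library, so RNA per cell was not measured, and fewer cells of a type and less RNA per cell cannot be told apart in such bulk samples.

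Levels differed widely between members although their proteins are needed in near-equal numbers. The mean level ran from 94.4 TPM for RPL37 to 6338 TPM for RPS2, with a median of 1493 TPM, a range of 67.2-fold. This range and order depend on the annotated transcript lengths as well as on the counts. The leading transcript was 7686 bases long in RPL37, 985 in RPS2 and 418 in RPS21. In CPM, which are not divided by length, RPL37 had 73.1 in MOCK and RPS21 69.4. RPS2, which lines the entry of the mRNA channel, stood first with 7229 ± 1885 TPM in MOCK against 5447 ± 3674 TPM in CYGB. It was followed by RPS18 with 5102 ± 262 and 5050 ± 168 TPM and by RPL12, of the stalk base, with 4889 ± 196 and 5032 ± 434 TPM (SD, n = 3). The levels of RPS18 and RPL12 lay within the spread of each other, and those of RPS2 were too variable to separate it from either. RPL8, RPL3, RPL13A and RPL41 completed the leading 5 of the large subunit with mean levels of 4531, 3666, 3657 and 3416 TPM. RPS12 and RPSA were also among the leading 5 of the small subunit, with 3309 and 2993 TPM. The stalk proteins stood lower, with 2770 ± 353 TPM in MOCK against 2938 ± 213 TPM in CYGB for RPLP0.

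**Figure D1:**
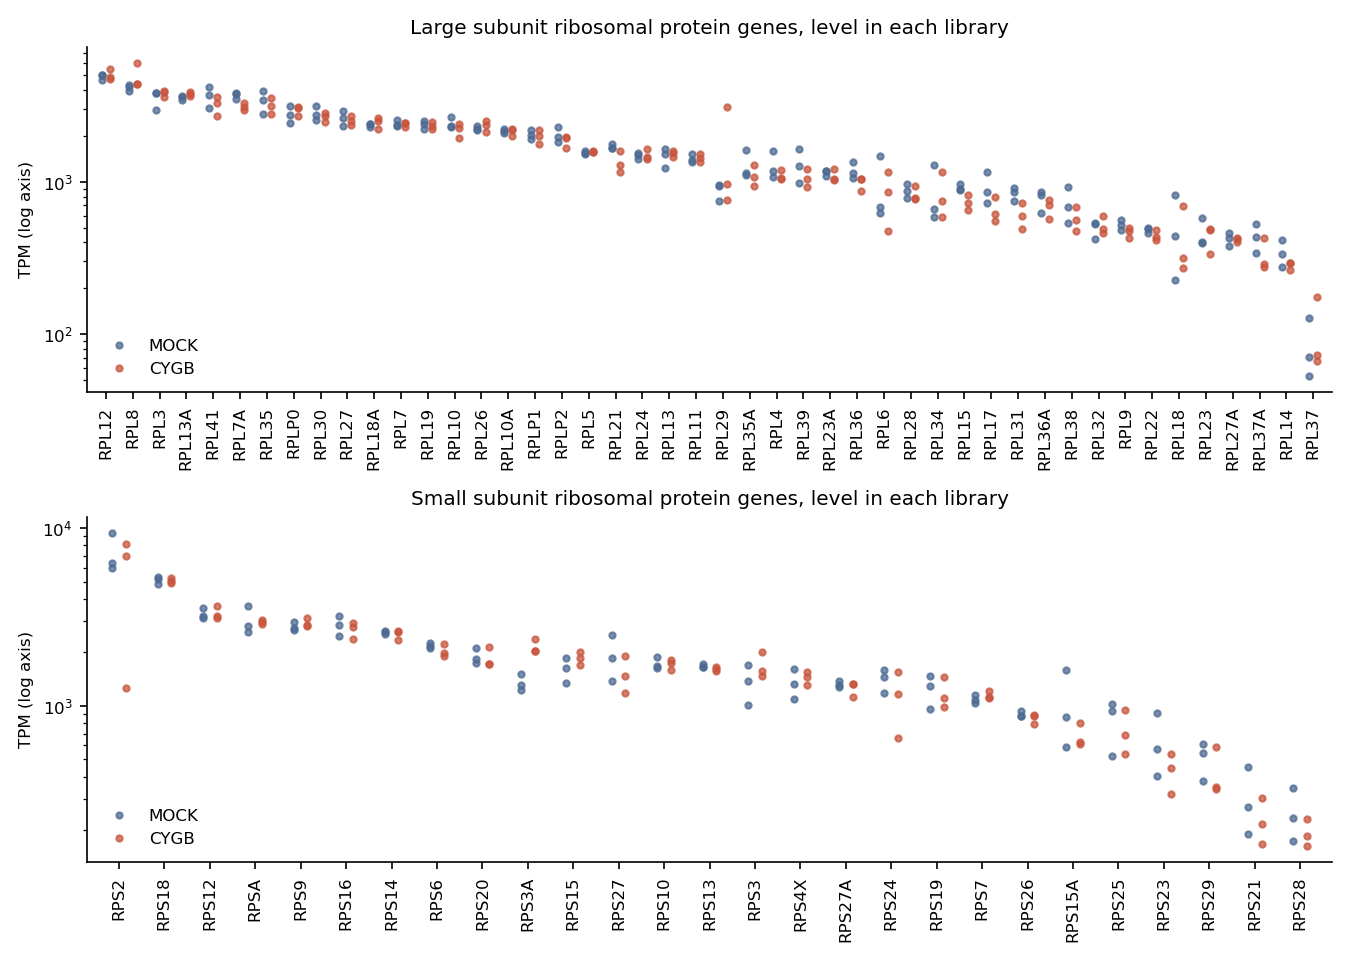
Level of 73 ribosomal protein genes in TPM (log axis) in the 3 MOCK and the 3 CYGB libraries, each point a library, ordered by mean level within the large (top) and small (bottom) subunit. Levels run from RPL37 at 94.4 TPM to RPS2 at 6338 TPM on average, the groups overlap for nearly all genes, and single libraries stand apart for RPS2 and RPL29.

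At the gene level no member was called changed between CYGB and MOCK cells. With the threshold of the study's methods, an unadjusted p of at most 0.01 and a ratio of at least 2 or at most 0.5, edgeR's quasi-likelihood test called 0 of the 77 members, and 0.565% of all 19987 genes tested. With an adjusted p under 0.05 it also called 0 members, and 0.0550% of all genes. An unadjusted p under 0.05 was reached by 4 members, RPS3A, RPL7A, RPL21 and RPL22, beside 4.54% of all genes. DESeq2 called 1 member, RPS3A, by adjusted p, beside 0.540% of all genes. The median log2 fold change was -0.06 over the members and -0.01 over all genes tested. Of the 77 members 22 lay above 0, beside 9755 of the 19987 genes tested. Without MOCK replicate 1 that number was 32, and without CYGB replicate 2 it was also 32. The median was -0.05 for the large and -0.08 for the small subunit genes, and 74 of the 77 members lay within 0.5 of 0 on the log2 scale. The standard error of a member's log2 fold change was 0.126 in the median and 0.0586 to 0.643 over the members. A change under 2-fold could not pass the threshold of the methods. By edgeR adjusted p, changes of 0.64 in RPS3A (0.844) and -0.34 in RPL7A (0.963) were not called either. The absence of calls thus does not show that small changes were absent.

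**Figure D2:**
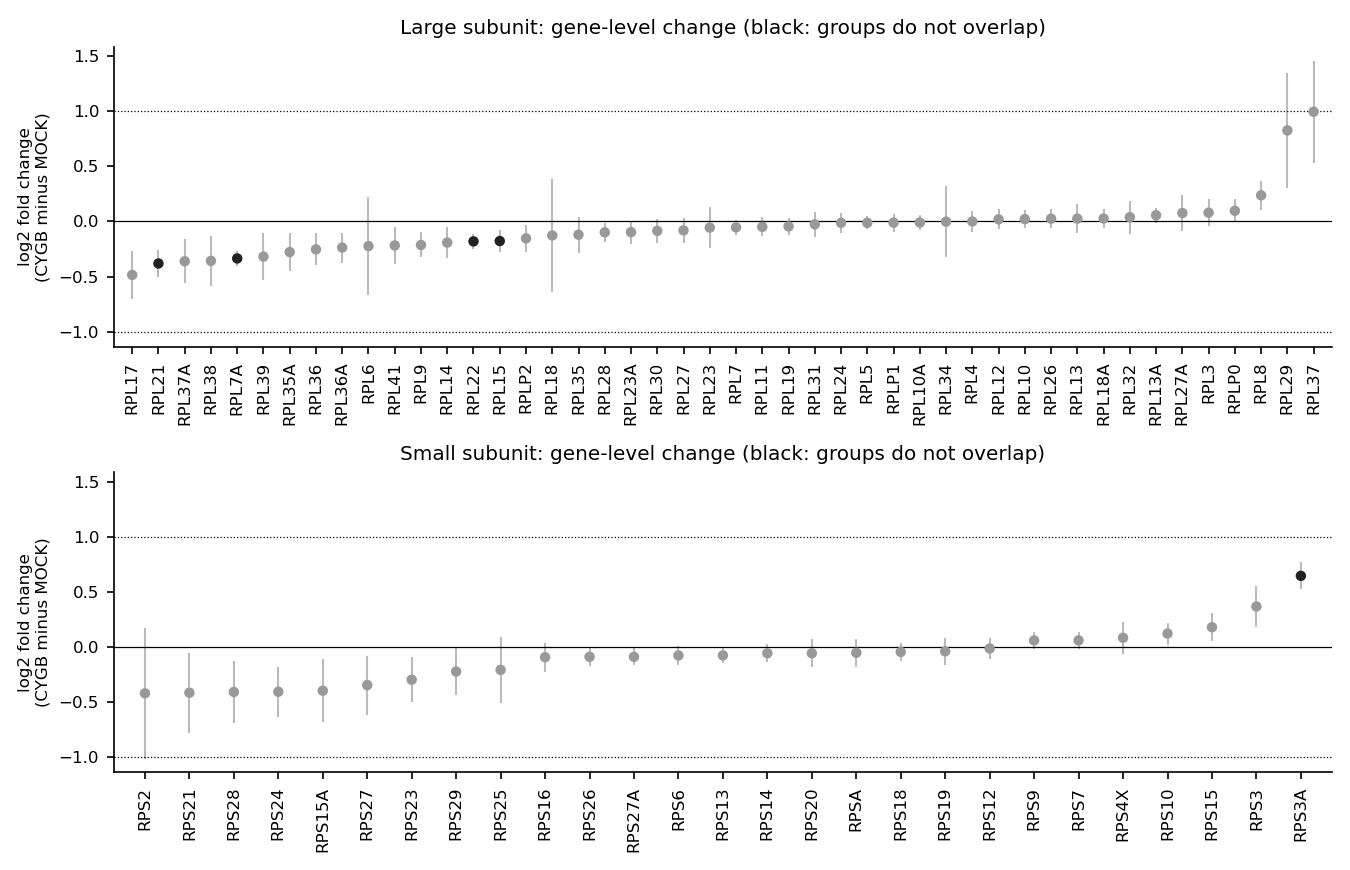
Gene-level log2 fold change (CYGB minus MOCK) of 73 ribosomal protein genes with its standard error from edgeR, ordered within the large (top) and small (bottom) subunit, with black points for the 5 of them whose groups do not overlap and dotted lines at a ratio of 2 and 0.5. No member was called, and the widest bars belong to genes such as RPS2, RPL29 and RPL37 in which single libraries stood apart.

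The groups did not overlap for 6 members, of which 5 are named here because of these values. RPS3A was the 1 member with all CYGB libraries above all MOCK libraries, against 5.72% of all genes tested. In 5 of the 77 members all CYGB libraries lay below, among them RPL7A, RPL15, RPL21 and RPL22, against 5.31% of all genes tested, a share close to the background.

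RPS3A, a protein of the small subunit platform near the messenger RNA exit, had 747, 630 and 592 CPM in MOCK against 966, 949 and 1160 CPM in CYGB. All CYGB libraries were higher, and the lowest of them was above the highest MOCK library by more than the spread within MOCK. Its log2 fold change was 0.64 (SE 0.123), with an unadjusted p of 0.00186 and an adjusted p of 0.844 by edgeR and an adjusted p of 0.0254 by DESeq2. The change stood between 0.55 and 0.75 with 1 library left out. Of the 150-base windows of its leading transcript 43.1% also occur in another gene of the annotation. With the counts of its pseudogenes added it was 0.61.

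RPL7A, a large subunit protein whose gene carries small nucleolar RNAs in its introns, had 1754, 1827 and 1834 CPM in MOCK against 1363, 1378 and 1551 CPM in CYGB. Every CYGB library was lower, and the log2 fold change was -0.34 (SE 0.0714, edgeR unadjusted p = 0.00315, adjusted p = 0.963). Per length the level was 3691 ± 183 TPM in MOCK against 3110 ± 161 TPM in CYGB. RPL22, an RNA-binding protein of the large subunit, had 450, 446 and 470 CPM in MOCK against 422, 379 and 404 CPM in CYGB. Its log2 fold change of -0.18 (SE 0.0685) was small and its edgeR adjusted p was 0.963.

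RPL21 had 712, 657 and 671 CPM in MOCK against 617, 497 and 451 CPM in CYGB. Its processed pseudogene RPL21P16, a near-identical copy, had higher rather than lower means in CYGB, with 105, 122 and 117 CPM in MOCK against 114, 179 and 222 CPM in CYGB. Another copy, RPL21P75, had 43.0 ± 5.64 CPM in MOCK against 67.7 ± 25.4 CPM in CYGB. The log2 fold change of RPL21 was -0.38 (SE 0.124) alone and -0.14 (SE 0.0547) with the counts of its pseudogenes added, so its size depended on whether the copies were counted with the gene. RPL15, a core protein of the large subunit, had 836, 866 and 829 CPM in MOCK against 648, 796 and 794 CPM in CYGB, with a log2 fold change of -0.18, which became -0.086 without CYGB replicate 1. In RPL21 51.1% of the 150-base windows of the leading transcript also occur in another gene.

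**Figure D3:**
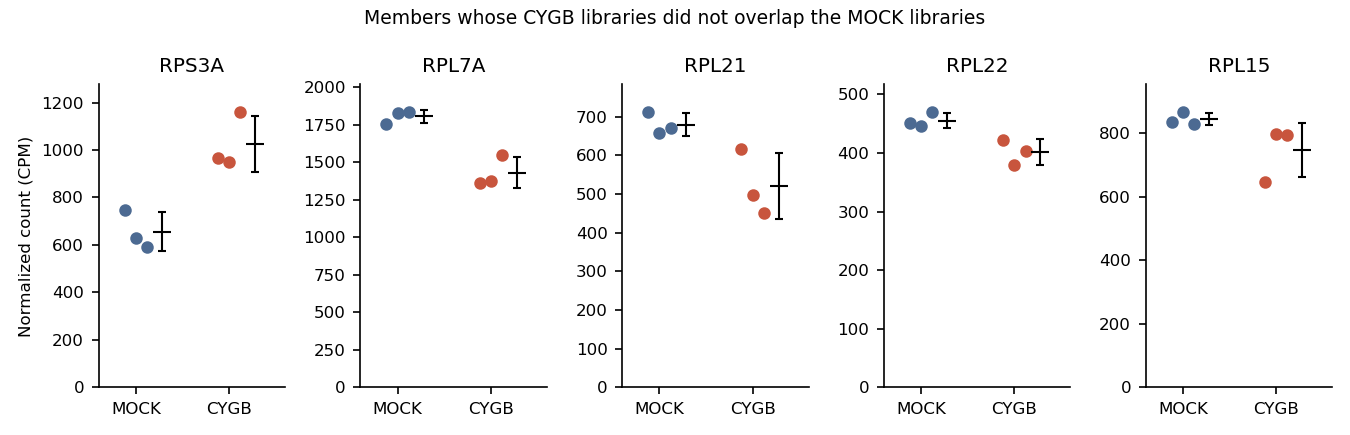
Normalized counts in CPM of 5 members whose groups do not overlap, with a point for each library and the mean ± SD (n = 3) beside the points. RPS3A is higher in all CYGB libraries and RPL7A, RPL21, RPL22 and RPL15 are lower, with RPL15 lowest in CYGB replicate 1.

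The largest fold changes among the members, those of RPL37 and RPL29, came with CYGB libraries that stood far apart from each other. RPL37 had 89.7, 64.8 and 64.9 CPM in MOCK against 225, 154 and 58.9 CPM in CYGB, so that its highest and its lowest library were both CYGB libraries. Its log2 fold change was 1.00 (SE 0.464, edgeR adjusted p = 0.963), and without CYGB replicate 3 it was 1.38 and past the threshold of the methods. Without CYGB replicate 1 it was 0.54. RPL29 had 285, 355 and 349 CPM in MOCK against 273, 1112 and 368 CPM in CYGB, and its log2 fold change of 0.83 became -0.041 without CYGB replicate 2. RPS2 had 3281, 3876 and 2957 CPM in MOCK against 629, 3478 and 3437 CPM in CYGB, and its change of -0.42 became 0.035 without CYGB replicate 1. RPS3, a small subunit protein that also takes part in DNA repair, had 915, 1298 and 1341 CPM in MOCK against 1815, 1288 and 1475 CPM in CYGB, with a log2 fold change of 0.37 (SE 0.189), or 0.21 without MOCK replicate 1.

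The most negative log2 fold changes also came with a wide spread. RPL17 had a log2 fold change of -0.49 (SE 0.22), from 341 ± 84.7 CPM in MOCK to 243 ± 47.8 CPM in CYGB, and it was -0.27 without MOCK replicate 1. RPS2, RPS21, RPS28 and RPS24 followed with -0.42, -0.42, -0.41 and -0.41. RPS21 and RPS28, short proteins of the small subunit, were highest in MOCK replicate 1, at 104 and 239 CPM, and without that library their changes were -0.012 and -0.0997. That of RPS24 was -0.21 without CYGB replicate 2. MOCK replicate 1 was the highest library for 38 of the 77 members, against 18.8% of all genes tested, and CYGB replicate 2 was the lowest for 41 of them, against 15.7% of all genes. Without MOCK replicate 1 the median log2 fold change over the members was -0.033, without CYGB replicate 2 it was -0.024, and without MOCK replicate 3 it was -0.11.

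Replicates of one group varied more for these genes than for other abundant genes. The median coefficient of variation of a member over 3 libraries was 12.4% in MOCK and 11.1% in CYGB, against 6.96% and 9.19% for all genes averaging 50 CPM or more. Across the libraries of both groups together, the highest exceeded the lowest by at least 2-fold in 14 of the 77 members (18.2%). This was close to the 16.4% of the 4399 genes at that level. In RPS2 it was 6.16-fold, between MOCK replicate 2 and CYGB replicate 1.

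RPL5, RPL11, RPS6, RPSA, RPS27A, RPS19, RPS26, RPL10A and the stalk proteins, looked at for their known roles, had log2 fold changes between -0.15 and 0.10, and none was called. RPL5 had 848, 843 and 873 CPM in MOCK against 843, 820 and 881 CPM in CYGB, with a log2 fold change of -0.01 (SE 0.0586). RPL11, its partner in binding MDM2, had 708, 672 and 640 CPM in MOCK against 644, 598 and 710 CPM in CYGB, with a change of -0.05 (SE 0.0852). For both the groups overlapped and the interval of 2 standard errors on either side of the estimate held 0. RPS6, the substrate of S6 kinase, had 1301 ± 53.0 CPM in MOCK against 1232 ± 111 CPM in CYGB, a change of -0.08. RPSA, also known as the laminin receptor, had 1797 ± 306 and 1730 ± 83.9 CPM, and RPS27A, made as a fusion with ubiquitin, 684 ± 24.3 and 642 ± 48.8 CPM. RPS19, the gene most often mutated in Diamond-Blackfan anaemia, had 1062 ± 161 and 1031 ± 70.8 CPM, RPS26 548 ± 26.7 and 514 ± 45.3 CPM, and RPL10A 950 ± 21.1 and 944 ± 65.9 CPM. Of the stalk proteins RPLP0, RPLP1 and RPLP2 the log2 fold changes were 0.10, -0.01 and -0.15.

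Genes that work with the ribosomal proteins were not called either. Of 9 tested of 11 related genes outside the rule, such as RPL22L1, RPL36AL, FAU and RACK1, 0 passed either threshold and their median log2 fold change was -0.02. The same count of 0 was found for 18 of 18 other TOP messenger RNAs of translation, for 16 tested of 17 regulators of ribosomal protein synthesis, and for 9 of 9 dedicated chaperones, with NAP1L1 standing in both the TOP and the chaperone list. An unadjusted p under 0.05 was reached by 0 genes of these 4 lists. MDM2 was at 318 CPM in MOCK replicate 1 and at 19.2 to 23.1 CPM in the other libraries, and EEF2, the elongation factor that moves the ribosome, was at 352 CPM in CYGB replicate 1 and at 4.35 to 26.6 CPM in the others. Single libraries therefore stood apart in these genes as they did in RPS2 and RPL29. EEF1A1, of the same TOP list, averaged 12654 CPM in MOCK and 12540 CPM in CYGB. Whether the low counts of EEF2 reflect its RNA or the way reads were assigned to genes was not tested.

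The table lists transcripts, and each member had 2 to 27 of them, with a median of 9. At this level 638 transcripts of the members were tested, and 7 passed the threshold of the methods, 3 of them higher in CYGB, beside 1.02% of all 66609 transcripts. With an adjusted p under 0.05 there was 1, the RPL7A transcript ENST00000468019, beside 0.0150% of all transcripts. DESeq2 called 9 by adjusted p, beside 1.12% of all transcripts.

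The largest shift of counts between transcripts among the members was in RPL7A. ENST00000468019, annotated as a processed transcript without a coding region (chr9:133348252-133351372, GRCh38), held 60887, 66236 and 56042 counts in MOCK against 2031, 1605 and 1647 in CYGB. All CYGB libraries were far below all MOCK libraries, and the log2 fold change was -5.12 (SE 0.145, edgeR adjusted p = 0.00475). It remained between -5.24 and -5.05 with 1 library left out, but its edgeR adjusted p was 0.292 without CYGB replicate 3. The protein-coding transcript ENST00000323345 (chr9:133348214-133351426) held 10740, 20648 and 32345 counts in MOCK and 61340, 64529 and 74756 in CYGB, a log2 fold change of 1.66 (SE 0.38, edgeR adjusted p = 0.698). As a share of the gene's counts, ENST00000468019 fell from 67.1% ± 7.17 in MOCK to 2.42% ± 0.477 in CYGB. ENST00000323345 took 22.9% ± 10.7 in MOCK and 91.0% ± 1.68 in CYGB, a difference of 68.1 percentage points. A further transcript, ENST00000463740, which keeps an intron, held 9.37% ± 3.44 and 5.68% ± 1.11, and its groups overlapped.

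The main RPL7A transcripts differ at their ends. Exon 1 of ENST00000323345 is 33 bases long (chr9:133348214-133348246) and its last 3 bases are the annotated start codon. Exon 1 of ENST00000468019 is 137 bases long and lies within the following intron (chr9:133348252-133348388), so that this transcript lacks that start codon. Exons 2 to 7 are shared, and the last exon is 165 bases long in the former and 111 in the latter. Reads that touch the 137 bases of that exon, or that cross the junction of exons 1 and 2, tell the 2 transcripts apart at this end. The junction is shown for both with the end of exon 1 in capitals and the start of exon 2 in lower case, 5′ to 3′ on the + strand.
ENST00000323345: CCGCCGCCCAAGATGccgaaaggaaagaag
ENST00000468019: CACGGAGACACCGAGccgaaaggaaagaag
The first of these ends exon 1 with ATG, the start codon, and the second does not. Of the 150-base windows of ENST00000323345 only 0.539% occur in no other transcript of RPL7A, and of those of ENST00000468019 17.0%. Most stretches of RPL7A as long as a read thus occur in more than 1 transcript, and how the authors' tool divided such reads is not given in the sources used here. Whether the shift between these transcripts arose in the cells or in that division was not tested.

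**Figure D4:**
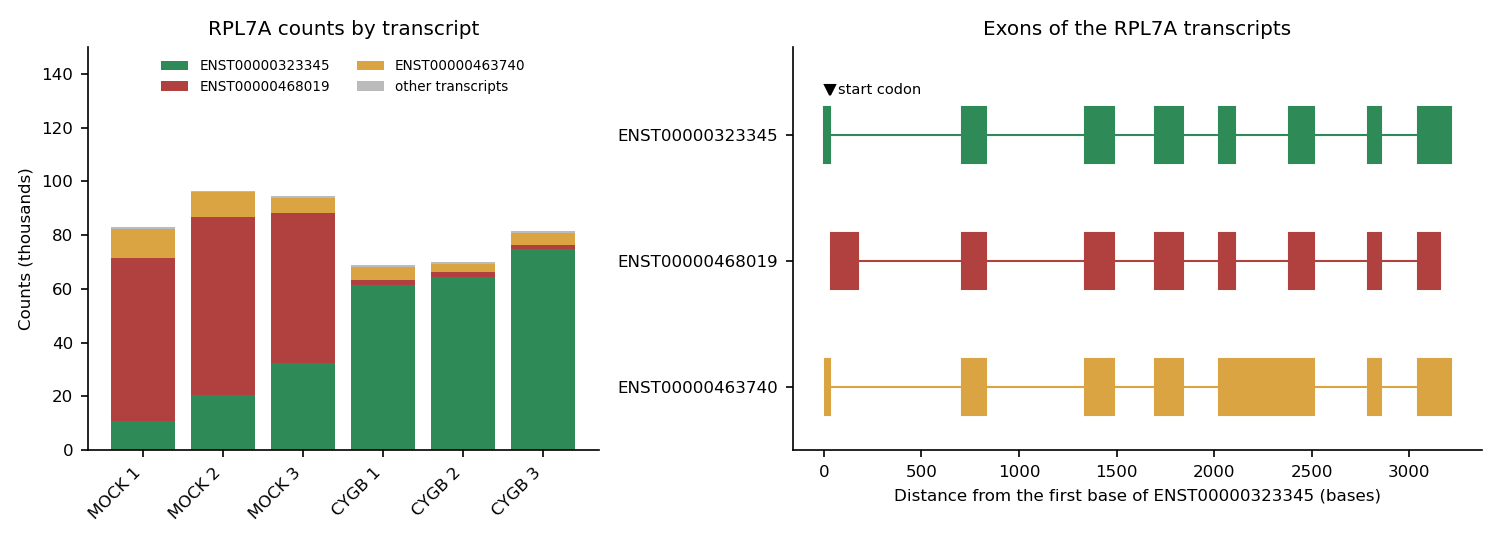
Left, RPL7A counts in each library, stacked by transcript. Right, exons of the 3 main transcripts as boxes against the distance in bases from the first base of ENST00000323345, with its start codon marked. ENST00000468019 holds most counts in the 3 MOCK libraries and 2.02% to 2.95% of them in the CYGB libraries, while ENST00000323345 and ENST00000468019 differ in their first exon and in the length of the last, and ENST00000463740 has 1 exon of 488 bases in place of exons 5 and 6.

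Tests of isoform usage, which ask whether the transcripts of a gene changed by unequal amounts, called RPL7A in both forms used. The edgeR test (diffSpliceDGE) called 2 members by adjusted p under 0.05, RPL7A (adjusted p = 2.29e-08) and RPL29 (adjusted p = 0.00596), beside 2.00% of the 11478 genes tested. On simulated counts a large part of its calls were genes that had not been changed, so a test with limma on the log2 odds of each transcript within its gene was added. The limma test, which was not itself run on simulated counts, called 1 member, RPL7A (limma adjusted p = 0.0105), beside 0.559% of 14481 genes. The log2 odds of ENST00000468019 within RPL7A changed by -6.40 (SE 0.341) and those of ENST00000323345 by 5.21 (SE 0.494). The limma adjusted p of RPL7A was 0.0517 without MOCK replicate 2 and 0.0529 without CYGB replicate 2, while the edgeR test called it with any 1 library left out. RPL29 was lost with the limma test (adjusted p = 0.51) and in the edgeR test without any 1 library but MOCK replicate 1.

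Over all members together, coding transcripts held a larger share of the counts in CYGB and processed transcripts a smaller one. Protein-coding transcripts held 86.6%, 86.6% and 87.8% of the members' counts in MOCK and 89.5%, 88.8% and 89.8% in CYGB. Processed transcripts without a coding region held 4.05% ± 0.333 in MOCK and 2.44% ± 0.350 in CYGB, and the groups did not overlap for either class. ENST00000468019 is itself one of the processed transcripts. Without RPL7A this class held 2.01% ± 0.297 of the counts in MOCK against 2.30% ± 0.323 in CYGB, and the protein-coding class 88.8% ± 0.547 against 89.3% ± 0.524, with overlapping groups in both. The difference in processed transcripts thus lay in RPL7A. Transcripts that keep an intron held 7.52% ± 0.767 and 6.79% ± 0.187, and those annotated for nonsense-mediated decay 1.45% ± 0.627 and 1.41% ± 0.543.

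Other members also changed their leading transcript, but with wide spread between replicates. The most abundant transcript differed between the groups in 7 of the 77 members, RPL17, RPL36A, RPL7A, RPL8, RPS10, RPS24 and RPS26, beside 15.4% of all genes with at least 2 tested transcripts. The share of the leading transcript did not overlap between the groups in 6 members, RPL15, RPL17, RPL31, RPL36, RPL36A and RPL7A, beside 10.7% of all such genes. Both shares of the members were below those of all genes. RPL7A was the 1 member (1.30%) in which a transcript's mean share changed by at least 50 points, beside 1.39% of all genes. The leading transcript held 81.3% of a member's counts in the median and 65.3% over all genes. In 73 members it was protein coding, and in others such as RPL10A, RPS12 and RPS24 it was annotated as a processed transcript or as one that keeps an intron.

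RPL31 showed the next largest change in mean share among the members without overlap. ENST00000264258, a long coding transcript, held 34.2%, 35.6% and 39.1% of its counts in MOCK and 78.2%, 78.9% and 42.5% in CYGB. CYGB replicate 3 stood close to the MOCK libraries, and the usage test did not call the gene (edgeR adjusted p = 0.937). A minor RPL31 transcript annotated for nonsense-mediated decay, ENST00000419276, rose from 4, 12 and 4 counts to 91, 50 and 56, past the threshold of the methods with an edgeR adjusted p of 0.384. RPL15 placed 52.4% ± 9.71 of its counts on ENST00000307839 in MOCK and 75.3% ± 6.86 in CYGB.

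In RPL17, ENST00000580210 held 47.9%, 27.6% and 45.2% of the counts in MOCK and 21.0%, 9.50% and 8.13% in CYGB. Its log2 fold change was -2.17 (SE 0.472), past the threshold of the methods, with an edgeR adjusted p of 0.611. Of the windows of this transcript 66.2% occur in another gene. In RPL36A the share of ENST00000614077 was 23.6% ± 17.7 in MOCK and 50.8% ± 8.23 in CYGB, and in RPS24 that of ENST00000478655, which keeps an intron, was 16.8%, 76.7% and 54.7% in MOCK and 22.1%, 14.7% and 13.0% in CYGB. The MOCK libraries of RPS24 thus differed among themselves by more than the groups did.

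The other transcripts past the threshold of the methods were minor ones. In RPS3A, ENST00000505243 rose from 16, 11 and 8 counts to 52, 71 and 80, while ENST00000510993 had 55, 21 and 22 counts in MOCK and was listed at 0 in all CYGB libraries, with edgeR adjusted p of 0.336 and 0.453. With 3 counts taken as the limit that a count of 0 allows in each library, the latter was at least 11.1-fold lower in CYGB, and at least 7.02-fold lower without MOCK replicate 1, which held the most counts. Neither carried the change of the gene, whose main transcript ENST00000274065 held 91.9% ± 3.79 of the counts in MOCK and 91.6% ± 3.12 in CYGB. In RPL29 a transcript annotated for nonsense-mediated decay, ENST00000480306, fell from 5.46% ± 2.29 of the counts to 1.15% ± 0.771, past the threshold of the methods with an edgeR adjusted p of 0.706.

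**Figure D5:**
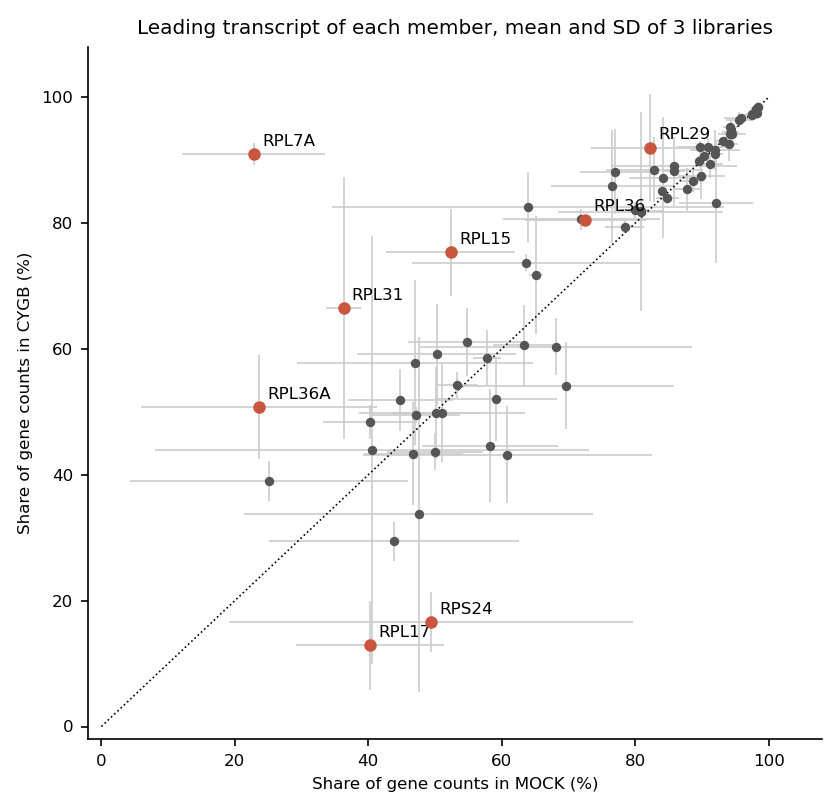
Share of the gene's counts (%) on the leading transcript of 73 members in MOCK (horizontal) and CYGB (vertical), mean ± SD of 3 libraries, with a dotted line where the shares are equal and 8 members named. RPL7A lies furthest from the line, at 22.9% in MOCK and 91.0% in CYGB, and most members with a leading share above 80% lie on it.

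Ribosomal protein genes have many processed pseudogenes, whose near-identical sequence can take reads from the parent gene. The table held 740 of them, 35 with a mean of at least 10 CPM, and 74 of the members had at least 1. Together they held 0.404% ± 0.0362 of the counts in MOCK and 0.376% ± 0.0131 in CYGB. RPS2P5 alone had 1079 ± 282 CPM in MOCK against 882 ± 74.3 CPM in CYGB, and in CYGB replicate 1, where RPS2 was at 629 CPM, it was at 959 CPM. With the counts of pseudogenes added to their parents edgeR called 0 members by either threshold, beside 0.550% of all genes by that of the methods and 0.0555% by adjusted p. An unadjusted p under 0.05 was then reached by 4 members, beside 4.57% of all genes. In 40 members none of the windows of the leading transcript occurs in another gene. In 5 members, among them RPS10, RPL17, RPL7 and RPL21, over 50% do, so these values are uncertain. A low share of such windows does not make a value certain. RPS28P7 held 180% of the counts of RPS28 over all libraries, and RPL9P9 113% of those of RPL9. Yet only 5.18% and 16.5% of the windows of the leading transcripts of RPS28 and RPL9 occur in another gene.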

How the data were processed

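RNA from 3 MOCK and 3 CYGB libraries of HCT116 cells was measured. The deposited table held raw, unnormalized counts for each transcript. Per the labels HISAT2 and DESeq2 were used with hg19, but 745 of the 754 member transcripts had their GENCODE 29 position on GRCh38, and the counting tool and its use of strand are not given in the sources used here. Rows without a gene (18.6% to 19.5% of counts) were left out. Counts were summed per gene, filtered by filterByExpr (minimum count 10), normalized by TMM and tested over all genes or transcripts with edgeR 4.0.16 (R 4.3.3), without a replicate term, with Benjamini-Hochberg adjustment. CPM used TMM library sizes. Isoform usage was tested with diffSpliceDGE and, chosen after seeing the data, with limma 3.58.1 on log2 odds (offset 0.5). Alternatives included DESeq2 1.42.0. The edgeR tests were run on simulated data. The limma test and DESeq2 were not. p-values of 3 against 3 libraries measure the spread between these libraries. Intervals built from edgeR standard errors include the spread between libraries. Limits on counts cover counting error only. The members and gene lists were chosen with earlier results of these data known. Named were members that were called, the 5 highest per subunit, the 5 largest rises and falls, up to 8 with a changed leading transcript, and 13 chosen by name. Of these 13, RPL7A was set beforehand as an example for isoform shares, and the others were chosen for known roles. Some members are not reported by name here, and were left out of the figures.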

Additional observations from a re-analysis of the deposited data

How the results depend on the processing

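The count of 0 members past the threshold of the methods held under all other settings run, except that it was 0 to 1 with 1 library left out (1, RPL37, without CYGB replicate 3), and the count of 0 by adjusted p became 1 with DESeq2. Of the transcripts, 7 were past the threshold of the methods with edgeR, 15 with DESeq2, 4 with a mean of at least 50 counts, where fewer were tested, and 7 to 12 with 1 library left out. By adjusted p the 1 transcript became 9 with DESeq2, 0 with the replicate block and 0 to 1 with 1 library left out (0 without CYGB replicate 3). The 2 members of the edgeR usage test became 1 with a mean of at least 50 counts, 1 with limma and 1 to 3 with 1 library left out. The limma test called 1, 0 with the replicate block and 0 to 2 with 1 library left out. With 1 library left out the median log2 fold change of the members ran from -0.11 to -0.024, and the difference of -0.188 percentage points in their share of counts ran from -0.363 (without MOCK replicate 3) to -0.027 (without MOCK replicate 1). The cause was not tested for any of them.

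The deviations of same-numbered libraries were correlated at 0.016, 0.0049 and 0.025 across all genes. Among the members these correlations were 0.34, -0.065 and 0.16, against -0.37 to 0.34 for differently numbered libraries. These values do not settle whether the numbers pair libraries. With the replicate block 0 members were called at gene level and 3 by the edgeR usage test.

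With 1 library left out, 11 of the named members changed direction, with log2 fold changes of -0.052 to 0.041 for RPL10A, -0.11 to 0.00499 for RPL11, -0.072 to 0.063 for RPL12, -0.041 to 1.17 for RPL29, -0.043 to 0.15 for RPL3, -0.038 to 0.0081 for RPL5, -0.0604 to 0.0525 for RPLP1, -0.086 to 0.057 for RPS12, -0.14 to 0.079 for RPS19, -0.73 to 0.035 for RPS2 and -0.14 to 0.092 for RPSA. The spread between 3 libraries limits what depth could show, with a common biological coefficient of variation of 36.6% for genes and 78.9% for transcripts.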
